A study of Homo sapiens with 24 samples.

Results

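The 44 genes described here encode subunits of respiratory complexes I to IV that are made from nuclear genes: 23 of complex I, 4 of complex II, 6 of complex III and 11 of complex IV. They were chosen by gene symbol from the platform annotation, with no use of their values, and are 44 of the 20061 genes named on the array. Each gene is represented by its brightest feature, meaning the array probe with the highest mean over all arrays. All 44 passed the filter that left out the dimmest 25% of genes, so they are 44 of the 15045 genes tested.

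Expression was measured in SH-SY5Y, a human neuroblastoma line with noradrenergic neuronal features, 24 h after transfection with the expression plasmid pCAGIG. The Mock group received the empty plasmid, V21 the plasmid with the FMR1 5' untranslated region carrying 21 CGG repeats, V79 the same region with 79 repeats, and V79_8x the 79-repeat region in a condition that the labels mark as overexpression and as 8x. The sources used here do not say what 8x refers to or which share of cells took up plasmid. Each group had 6 arrays, 1 from each of the experiments B to G, described by the submitters as biological replicates, and an array is named here by its group and letter. All 4 groups share the line, the plasmid backbone and the time after transfection. Whether the 8x condition changed the transfection itself is not stated. Long CGG repeats in this region of FMR1 are carried in the fragile X premutation, and the comparisons ask what the region, the longer repeat and the 8x condition change in the cells' RNA.

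Complexes I and II pass electrons from NADH and succinate to ubiquinone, complex III passes them on to cytochrome c, and complex IV to oxygen. Complexes I, III and IV pump protons as they do so, and ATP synthase uses the proton gradient to make ATP. Most subunits are encoded in the nucleus and imported, while a smaller core is encoded by mitochondrial DNA. In neurons this chain supplies most ATP, and mitochondrial function has been studied in cells of fragile X premutation carriers.

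Many promoters of these genes hold short motifs of factors known to act on respiratory genes. A few are shown, because the motifs of nuclear respiratory factor 1, YY1 and ETS factors were found for more of the members than of all genes. None of these 3 alone was found for most members. In RefSeq (GRCh38.p14), 37 of the 44 genes had at least 1 promoter of 250 bases before to 50 bases after a start. The motif of nuclear respiratory factor 1 was searched as GCGCANGCG on both strands and was found for 10 of these 37 genes (27%), against 9.02% of 27305 genes with a promoter there. The YY1 motif AANATGGC was found for 18 (48.6%, against 7.97% of genes), and the ETS motif CCGGAAG, which the GABP factor binds, for 11 (29.7%, against 12.2%). An ETS and a YY1 match can share bases, and a match describes letters, not binding. At least 1 of the 3 was found for 26 genes, against 24.9% of all genes. Of the other motifs searched, that of SP factors (GGGCGG) was found for 24 genes (64.9%, against 48.3% of genes). The CCAAT box was found for 27% (against 39.7%) and the TATA box for 10.8% (against 14%), both less often than over all genes. The median GC content was 58.7% in the members' 45 promoters and 58.7% in all 35116. Windows of 30 bases around the nuclear respiratory factor 1 match, with the match in capitals and read 5' to 3' on the gene's strand, were as follows for 6 members of the 4 complexes, and around the YY1 match for NDUFS8.
NDUFS6 (chr5:1801351-1801380, plus strand): cagaagccgtGCGCATGCGttagcgctaag
NDUFA9 (chr12:4649025-4649054, plus strand): tcttggttagCGCTTGCGCagacaggcgag
SDHD (chr11:112086753-112086782, plus strand): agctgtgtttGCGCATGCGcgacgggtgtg
UQCRC1 (chr3:48609673-48609702, minus strand): tacggtactgCGCCTGCGCcgcgaccgcca
UQCRFS1 (chr19:29213162-29213191, minus strand): cgcctcctcgCGCCTGCGCcgtggttggaa
COX6A1 (chr12:120437884-120437913, plus strand): ggagggcacaCGCATGCGCacgaaggaaac
NDUFS8 (chr11:68030490-68030519, plus strand): ctccccaaaccAACATGGCggccccctaca
The matches end between 22 bases (UQCRFS1) and 211 bases (COX6A1) before the start, and that of NDUFS8 ends 173 bases before it. In NDUFA9, UQCRC1, UQCRFS1 and COX6A1 the motif reads on the opposite strand, and in SDHD on both strands at overlapping positions.

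Some facts of the whole set of arrays bear on the results. The deposited log2 intensities followed 1 distribution, with sorted values within 0.01 of each other and a median of 6.7 on every array, which hides any change that most genes share. Mock D, V21 B, V21 C and V79 B stood apart. Histone genes had a median shift of 0.41 to 0.86 on these 4 arrays from the other arrays of their group, and of -0.41 to 0.09 on the other 20 (with -0.37, -0.41 and -0.31 on V21 D, E and F, whose group holds V21 B and C), and limma's array weights were 0.104 to 0.183 on the 4 and 0.661 to 3.14 on the 20. Results are given with and without them. Of the line's markers, all 11 noradrenergic ones with a feature were above the dim limit. They ran from PHOX2A at 8.16 and TH at 8.36 to DBH at 13.03, HAND2 at 14.43 and STMN2 at 16.38 (log2). All 12 mesenchymal markers were above the limit as well. Of the glial markers with a feature, GFAP and SOX10 lay below it, and S100B (8.41) and ERBB3 (7.15) above it. Passing the limit therefore does not tell these cell types apart. The mean of the noradrenergic markers lay between 11.80 and 11.82 in the 4 groups, and that of the mesenchymal markers between 10.51 and 10.58. Within these lists, ISL1, a neuronal transcription factor, fell in V79_8x against Mock (-0.24 ± 0.06, limma, adjusted p = 0.023), and COL1A2, a collagen chain, fell against Mock (-0.40 ± 0.10, adjusted p = 0.025) and against V21 (-0.49 ± 0.10, adjusted p = 0.0033). ISL1 also had the smallest p of the noradrenergic list in V79 against Mock (limma, unadjusted p = 1.1e-04, adjusted p = 0.83) and in V21 against Mock (adjusted p = 0.78). In V79_8x against V79 and against V21, 0 genes of that list passed. A difference of ISL1 from Mock is therefore not shown to be particular to V79_8x. In bulk RNA, fewer cells with a transcript and less of it per cell cannot be told apart.

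No subunit of complexes I to IV rose or fell in any comparison. With limma, an empirical Bayes linear model fitted to all genes, and Benjamini-Hochberg adjustment over the 15045 genes at a threshold of 0.05, 0 of 44 passed in each of the 6 comparisons between groups, and 0 of 44 in the test for any difference between the 4 groups. In the same fit, 1.15% of all genes passed in V79_8x against V79, 2.2% in V79_8x against Mock, 2.86% in V79_8x against V21, 0.00665% in V79 against V21 (1 gene, SERPINA3, an extracellular protease inhibitor named after its value was seen), 0.00665% in V79 against Mock (the same gene), 0% in V21 against Mock, and 1.97% in the test for any difference. In every comparison the background is so low that a count of 0 among 44 members cannot be told from it. At an unadjusted p under 0.05, limma gave 1 member in V79_8x against V21 (SDHD), 1 in V79 against V21 (SDHD again), 1 in V21 against Mock (NDUFV2) and 0 in the other comparisons and in the test for any difference. The shares of all genes at that level were 19.4%, 3.82% and 3.23% in these 3 comparisons, 5.5% in V79_8x against V79, 8.84% in V79_8x against Mock, 2.7% in V79 against Mock and 8.67% for any difference.

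The counts were the same without the 4 arrays. Again 0 of 44 members passed in any comparison with limma, while 1.82% of all genes passed in V79_8x against V79, 3.97% in V79_8x against Mock, 3.08% in V79_8x against V21, 0% in V79 against V21, 0.00665% in V79 against Mock (SERPINA3), 0% in V21 against Mock and 2.93% in the test for any difference. At an unadjusted p under 0.05 there was then 1 member in each of 3 comparisons and 0 in the others and for any difference. They were NDUFC2 in V79 against V21 (+0.15 ± 0.07, log2 difference and standard error; 2.22% of all genes), and COX5A in V79 against Mock (-0.12 ± 0.06; 4.25%) and in V21 against Mock (-0.14 ± 0.06; 1.69%). The shares of all genes were 9.49% in V79_8x against V79, 13.9% against Mock, 12% against V21 and 9.82% for any difference. The members that reached that level differed from those with all 24 arrays.

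The differences were small as well as short of the threshold. The largest difference of any member corresponded to 1.06-fold in V79_8x against Mock (SDHC), 1.09-fold in V79 against Mock (COX5A), 1.12-fold in V79_8x against V79 (NDUFA9), 1.19-fold in V79 against V21 (SDHD), 1.23-fold in V21 against Mock (SDHB) and 1.27-fold in V79_8x against V21 (NDUFA9). The 95% interval of the difference lay within 0.5 on the log2 scale (1.41-fold) in either direction for all 44 members in V79_8x against Mock and in V79 against Mock, for 43 in V79_8x against V79, and for 42 in each of the other 3 comparisons. It lay within 0.3 (1.23-fold) for 40 members in V79_8x against Mock, 38 in V79_8x against V79 and in V79 against V21, 36 in V79 against Mock, and 32 in each of the remaining 2 comparisons. Without the 4 arrays, 41 to 43 members had intervals within 0.3. The median standard error of a difference was 0.074 for the members and 0.098 for all genes tested.

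**Figure D1:**
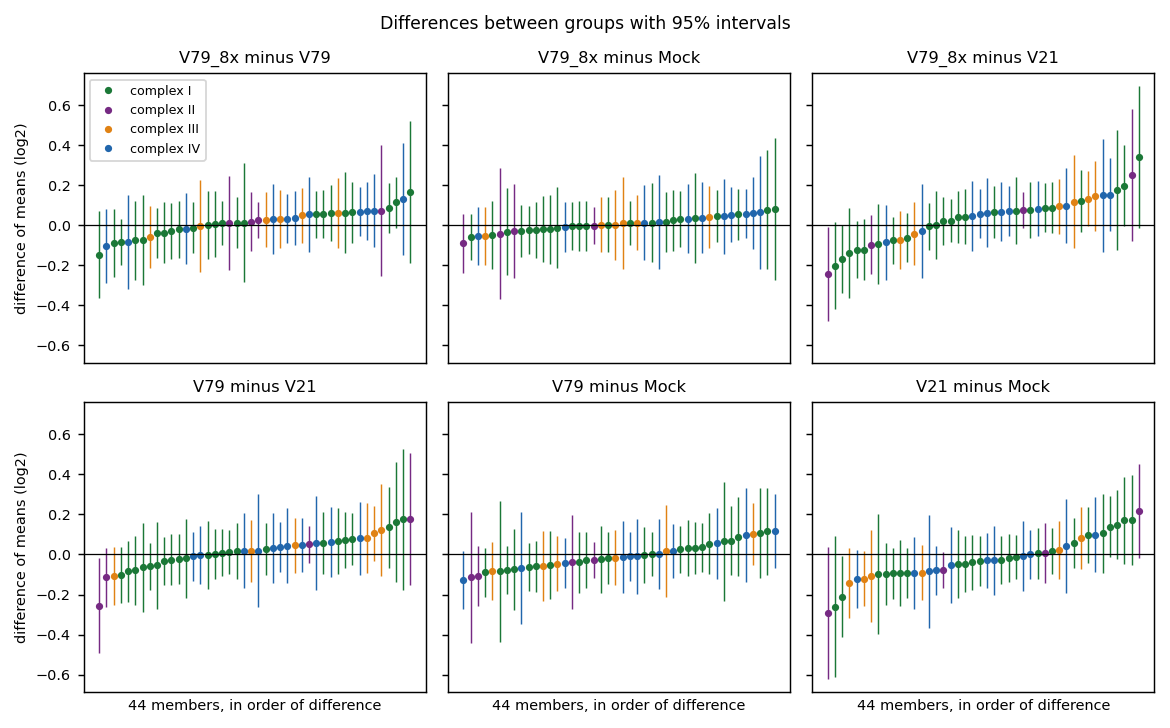
Difference of group means on the log2 scale (y axis) for the 44 members in order of size (x axis), coloured by complex, 1 panel for each of the 6 comparisons, with 95% intervals from limma as bars. Most intervals cross 0 in every panel, and the widest belong to NDUFA9 and SDHB, whose values lay far from their group on single arrays.

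The median difference of the 44 members lay close to that of all genes tested in every comparison. It was +0.02 in V79_8x against V79 (all genes +0.01), +0.01 in V79_8x against Mock (+0.01), +0.06 in V79_8x against V21 (+0.03), +0.02 in V79 against V21 (+0.02), -0.01 in V79 against Mock (+0.01) and -0.03 in V21 against Mock (-0.02). Comparisons that share a group share its arrays, so these medians are not independent. V21 was the group with the lowest mean for 23 of the 44 members, and V79_8x the one with the highest mean for 16. These counts were not taken over all genes or without the 4 arrays, so they are not read as a trait of the members. The medians of all genes leaned the same way (-0.02 in V21 against Mock, +0.03 in V79_8x against V21). Without the 4 arrays, of which 2 belong to V21, the median in V79_8x against V21 was +0.01, and the medians in V79_8x against V79 and against Mock turned to -0.002 and -0.01.

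The members' features sat high in the range of the array, so that the dim end did not limit them. Their mean levels ran from 10.29 (SDHD) to 16.94 (NDUFS5) with a median of 13.90, against a median of 9.59 over all genes tested, and 33 of 44 lay above the 90th percentile. A level depends on the probe as well as on the transcript, so levels of different genes are not set against each other. The spread between arrays of 1 group was a median SD of 0.12 per member and 0.17 per gene tested, and without the 4 arrays 0.09 and 0.12. RefSeq names pseudogenes for 28 of the members, up to 18 for COX6C, and whether the features also take up RNA from these copies was not tested.

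**Figure D2:**
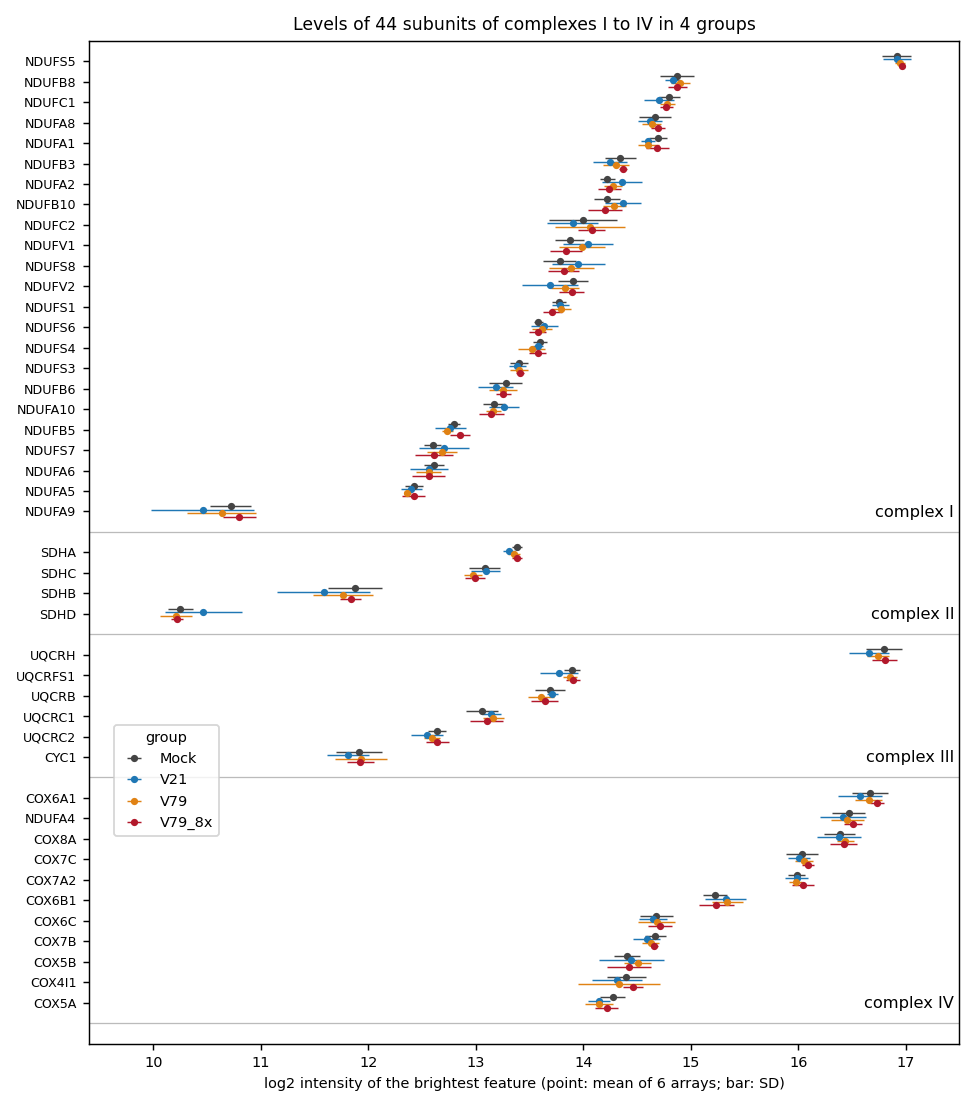
Mean log2 intensity of the brightest feature (x axis, bars are the SD over 6 arrays) for each of the 44 members (y axis, grouped by complex), with 1 colour for each group. The 4 group means of a member lie close together, at most 0.34 apart (NDUFA9), and the members with the widest pooled SD are NDUFA9, SDHB, NDUFC2 and COX4I1 (0.25 to 0.31).

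Complex I takes up electrons from NADH in its matrix arm. The mean of its 23 measured subunits was 13.75 ± 0.06 for Mock, 13.74 ± 0.04 for V21, 13.75 ± 0.06 for V79 and 13.75 ± 0.03 for V79_8x (log2, SD over 6 arrays). NDUFV1 and NDUFV2 belong to the core of the tip that binds NADH, where NDUFV1 carries the flavin and NDUFV2 an iron-sulphur cluster. NDUFV2 ran from 13.67 to 14.06 in Mock (median 13.93), from 13.37 to 14.06 in V21 (median 13.72), from 13.60 to 13.97 in V79 (median 13.86) and from 13.71 to 14.03 in V79_8x (median 13.91). The ranges overlapped, with V21 C as the lowest array of all. NDUFV2 differed by -0.21 ± 0.10 in V21 against Mock (limma, adjusted p = 0.78), and by -0.16 without the 4 arrays. NDUFV1 lay at 13.87 ± 0.13 for Mock, 14.04 ± 0.23 for V21, 13.99 ± 0.21 for V79 and 13.84 ± 0.15 for V79_8x.

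NDUFS1, NDUFS3, NDUFS7 and NDUFS8 are further core subunits of the matrix arm, and NDUFS1, NDUFS7 and NDUFS8 hold iron-sulphur clusters on the electrons' way to ubiquinone. NDUFS1 varied little, at 13.77 ± 0.07 for Mock, 13.79 ± 0.08 for V21, 13.79 ± 0.09 for V79 and 13.71 ± 0.09 for V79_8x. Its difference was -0.08 ± 0.06 in V79_8x against V79 (limma, adjusted p = 0.98) and -0.06 ± 0.06 against Mock (adjusted p = 0.93). Across the 4 groups the means of NDUFS3 differed by at most 0.02, the smallest spread of group means among the members. The means of NDUFS7 and NDUFS8 differed by at most 0.11 and 0.17.

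Accessory subunits surround the core. NDUFB5, in the membrane arm, had the smallest p of all members in V79_8x against V79: its values ran from 12.66 to 12.82 in V79 (median 12.74) and from 12.71 to 12.97 in V79_8x (median 12.85), with overlap, and the difference was +0.12 ± 0.06 (limma, adjusted p = 0.97). In Mock and V21 it lay at 12.79 ± 0.05 and 12.76 ± 0.14. NDUFB10, also of the membrane arm, ran from 14.22 to 14.68 in V21 (median 14.31) and from 13.94 to 14.36 in V79_8x (median 14.22). That difference was -0.17 ± 0.08 (limma, adjusted p = 0.26) and -0.07 without the 4 arrays. NDUFB10 was at 14.22 ± 0.12 in Mock and 14.29 ± 0.11 in V79. NDUFS5 stayed between 16.65 and 17.05 on all 24 arrays, with an SD of 0.01 in V79_8x and of up to 0.13 in the other groups. The lowest values of Mock and V21 were those of Mock D (16.65) and V21 B (16.68), and V79_8x holds no array that stands apart. The pooled SD was 0.10, and 0.04 without the 4 arrays.

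NDUFA9, an accessory subunit at the joint of the matrix and membrane arms, was the member with the widest spread between arrays (pooled SD 0.31, and 0.14 without the 4 arrays). It ran from 10.41 to 10.94 in Mock (median 10.75), from 9.82 to 10.91 in V21 (median 10.60), from 9.98 to 10.85 in V79 (median 10.74) and from 10.51 to 10.92 in V79_8x (median 10.87). The low ends of Mock, V21 and V79 were the arrays that stand apart. Its difference of +0.34 ± 0.17 in V79_8x against V21 (limma, adjusted p = 0.27) was +0.05 ± 0.09 without them. NDUFC2, another membrane-arm subunit, lay at 14 ± 0.32 for Mock, 13.90 ± 0.24 for V21, 14.06 ± 0.32 for V79 and 14.08 ± 0.13 for V79_8x.

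Complex II is succinate dehydrogenase, in which SDHA carries the flavin, SDHB the iron-sulphur clusters, and SDHC and SDHD anchor the enzyme in the membrane. It has no subunit encoded by mitochondrial DNA. Its 4 members gave a mean of 12.15 ± 0.07 for Mock, 12.11 ± 0.07 for V21, 12.08 ± 0.09 for V79 and 12.11 ± 0.04 for V79_8x. SDHA, on its brightest feature, had the smallest spread between arrays of all members (pooled SD 0.05). It lay at 13.38 ± 0.04, 13.30 ± 0.06, 13.36 ± 0.06 and 13.38 ± 0.04 in the same order. In V79_8x against V21 this feature differed by +0.08, and the dimmer features of SDHA by +0.26, +0.23 and +0.20 (limma, adjusted p from 0.31 to 0.41). SDHB ran from 11.41 to 12.10 in Mock (median 11.96), from 10.94 to 12.07 in V21 (median 11.67), from 11.22 to 11.99 in V79 (median 11.84) and from 11.69 to 11.93 in V79_8x (median 11.87). Its difference was -0.29 ± 0.16 in V21 against Mock (limma, adjusted p = 0.78) and -0.14 ± 0.09 without the 4 arrays. SDHC lay at 13.08 ± 0.14, 13.09 ± 0.14, 12.97 ± 0.08 and 12.99 ± 0.09 from Mock to V79_8x. On this brightest feature SDHC was lower by 0.09 to 0.12 in V79 and V79_8x than in Mock and V21. The adjusted p of limma ran from 0.43 to 1 in these 4 comparisons. Its dimmer features differed by +0.01 and -0.08 in V79 against Mock, and by -0.04 and +0.07 in V79 against V21. Both were lower in V79_8x than in Mock and V21. Their deviations had correlations of -0.16 and -0.36 with those of the brightest.

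SDHD, one of the membrane anchors, reached an unadjusted p under 0.05 in both comparisons of a 79-repeat group with V21. Its brightest feature ran from 10.12 to 10.40 in Mock (median 10.25), from 10.13 to 11.11 in V21 (median 10.33), from 10.06 to 10.47 in V79 (median 10.19) and from 10.14 to 10.28 in V79_8x (median 10.23). In V21 the upper values were those of V21 B (10.62) and V21 C (11.11), while the other 4 arrays lay between 10.13 and 10.36, within the range of the other groups. The differences were -0.26 ± 0.11 in V79 against V21 (limma, adjusted p = 0.83), -0.25 ± 0.11 in V79_8x against V21 (adjusted p = 0.24) and +0.22 ± 0.11 in V21 against Mock (adjusted p = 0.78). Without the 4 arrays they were -0.04, -0.05 and +0.05. The 2 dimmer features of SDHD went the other way, with +0.23 and +0.21 in V79_8x against V21. The second lay at 10.06 ± 0.19 for Mock, 9.89 ± 0.35 for V21, 9.94 ± 0.25 for V79 and 10.12 ± 0.14 for V79_8x, and the third at 8.54 ± 0.20, 8.36 ± 0.31, 8.58 ± 0.24 and 8.57 ± 0.15. Their deviations from the group means over the 24 arrays had a correlation with those of the brightest feature of -0.56 and -0.61.

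**Figure D3:**
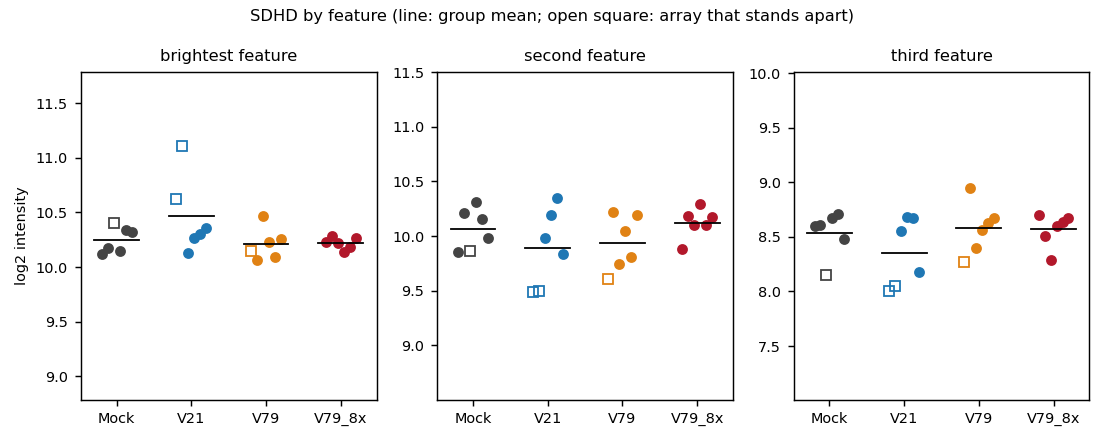
Log2 intensity (y axis) of the 3 features of SDHD on the 24 arrays by group (x axis), with a line at each group mean and open squares for the arrays that stand apart. On the brightest feature V21 B and V21 C are the highest arrays of all, and on the other 2 features they are the lowest.

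Complex III hands electrons to cytochrome c through the Rieske protein UQCRFS1 and cytochrome c1 (CYC1). The mean of its 6 measured nuclear subunits was 13.67 ± 0.08 for Mock, 13.61 ± 0.10 for V21, 13.65 ± 0.07 for V79 and 13.67 ± 0.01 for V79_8x. UQCRH, the hinge protein that helps cytochrome c1 meet cytochrome c, lay at 16.80 ± 0.17, 16.66 ± 0.18, 16.74 ± 0.10 and 16.80 ± 0.11. CYC1 lay at 11.91 ± 0.21, 11.81 ± 0.19, 11.93 ± 0.24 and 11.93 ± 0.12, with its lowest value of 11.45 on V79 B. Group means differed by at most 0.10 for the core proteins UQCRC1 and UQCRC2, by 0.11 for UQCRB and by 0.13 for UQCRFS1.

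Complex IV reduces oxygen, and its nuclear subunits surround a core encoded by mitochondrial DNA. The mean of its 11 measured nuclear subunits was 15.38 ± 0.11 for Mock, 15.35 ± 0.08 for V21, 15.38 ± 0.10 for V79 and 15.41 ± 0.04 for V79_8x. COX4I1 and COX5A are among the first nuclear subunits to join that core during assembly. COX5A ran from 14.05 to 14.38 in Mock (median 14.32), from 13.98 to 14.26 in V21 (median 14.18), from 13.91 to 14.25 in V79 (median 14.19) and from 14 to 14.28 in V79_8x (median 14.27). Mock held the highest value and the ranges overlapped, and the difference was -0.13 ± 0.07 in V79 against Mock (limma, adjusted p = 1). COX4I1 ran from 14.08 to 14.58 for Mock, 14 to 14.64 for V21, 13.56 to 14.58 for V79 and 14.33 to 14.57 for V79_8x, with medians of 14.46, 14.36, 14.49 and 14.47. COX6A1 lay at 16.67 ± 0.17, 16.58 ± 0.20, 16.66 ± 0.13 and 16.73 ± 0.06 from Mock to V79_8x. NDUFA4, first described with complex I and now counted with complex IV, lay at 16.47 ± 0.15, 16.41 ± 0.21, 16.46 ± 0.16 and 16.51 ± 0.08.

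Other probes of the same genes gave the same counts. The 44 members have 97 features, of which 96 were above the dim limit, and 0 of these passed in any comparison when all features were fitted together (limma, smallest adjusted p = 0.23). Of the members, 16 had more than 1 feature, and 4 had 10 each, which show the spread of probes on 1 array. For NDUFS5, NDUFS6, UQCRC2 and COX7C the SD between the features of a gene on 1 array had a median of 0.15, 0.11, 0.13 and 0.20, and the mean of the features had a pooled SD between arrays of 0.10, 0.08, 0.10 and 0.09. The mean over the 10 features of COX7C, a small complex IV subunit, was 15.76 ± 0.12 for Mock, 15.73 ± 0.09 for V21, 15.75 ± 0.08 for V79 and 15.83 ± 0.05 for V79_8x. For UQCRC2 it was 12.47 ± 0.09, 12.38 ± 0.14, 12.42 ± 0.07 and 12.47 ± 0.09. SDHD was not the only member whose features differed in sign. In V79_8x against V21, NDUFA10 differed by -0.12 on its brightest feature and by +0.06 on its second, and UQCRB by -0.07 and +0.21. In V79_8x against Mock, the 3 features of SDHC had 1 sign and different sizes, with -0.09 on the brightest and -0.49 on the dimmest (9.15, adjusted p = 0.81). In V79 against Mock and in V79 against V21 the signs of its features differed.

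The members' median was lower by more than that of all genes on 3 of the 4 arrays that stand apart, and by as much on V21 C. The median shift of the 44 members from the other arrays of the group was -0.18 on Mock D (all genes -0.13), -0.16 on V21 B (-0.09), -0.04 on V21 C (-0.04) and -0.14 on V79 B (-0.10), and between -0.08 (V79_8x B, below that of V21 C) and +0.09 on the other 20 arrays. By complex, the shift on Mock D was -0.14 for complex I, +0.04 for II, -0.15 for III and -0.28 for IV, and on V79 B it was -0.11, -0.13, -0.11 and -0.19. On V21 B it was -0.08, -0.07, -0.14 and -0.23, and on V21 C -0.02, +0.09, -0.14 and -0.03. The histone shifts were +0.45 on Mock D, +0.51 on V21 B, +0.86 on V21 C and +0.41 on V79 B. The part of RNA quality, handling or any other property of these arrays in the shift was not tested. Over the 44 members, the correlation of a member's level with its median shift was -0.02 (Pearson r, given as a description).

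**Figure D4:**
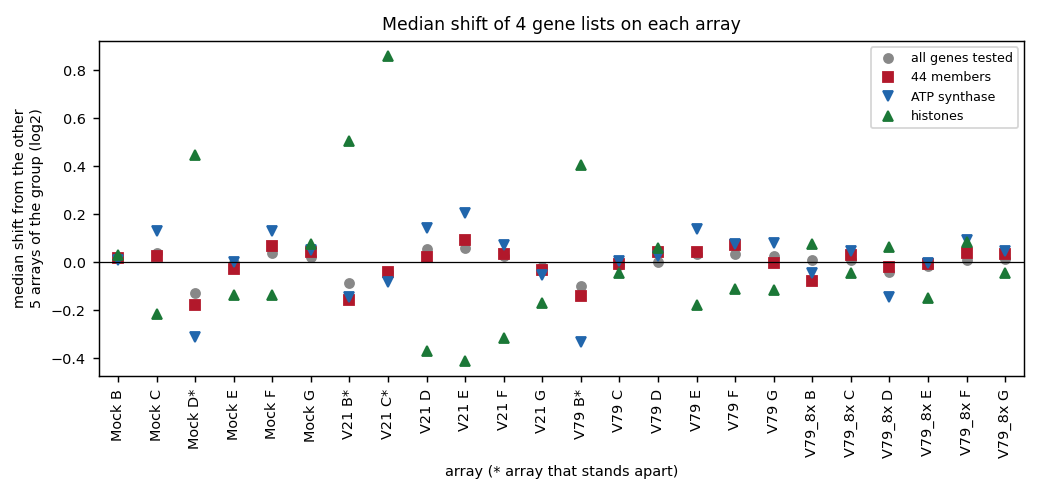
Median shift from the other 5 arrays of the group (y axis, log2) of all genes tested, the 44 members, 18 ATP synthase genes and 44 histone genes on each of the 24 arrays (x axis). On the 4 arrays marked with an asterisk the members lie at -0.18 to -0.04 and histones at 0.41 to 0.86.

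The shift differed between members. On all 4 arrays 16 members (36.4%) were lower than the other arrays of their group, against 31.3% of all genes, and 3 members (6.82%) were higher on all 4, against 14.9% of genes. For 8 members (18.2%, against 11.6% of all genes) the 4 arrays lay below every one of the other 20: NDUFA9, NDUFB6, NDUFC2, SDHB, UQCRH, COX4I1, COX6A1 and COX7C. NDUFC2 was at 13.38 on Mock D, 13.56 on V21 B, 13.67 on V21 C and 13.41 on V79 B, and at 13.91 to 14.26 on the other 20. SDHB was at 11.41, 11.25, 10.94 and 11.22 on the 4 arrays in that order, and at 11.49 to 12.10 on the rest. For NDUFA9 the values were 10.41, 9.92, 9.82 and 9.98, against 10.51 to 10.94. COX4I1 was at 14.08, 14.11, 14 and 13.56, against 14.31 to 14.64.

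The core subunits NDUFS8 and NDUFV1 and the accessory subunit NDUFA10 of complex I had the opposite shift on their brightest features. They were higher on all 4 arrays than on the rest of their group. NDUFS8 was at 14.03 on Mock D, 14.21 on V21 B, 14.31 on V21 C and 14.28 on V79 B, with a median shift of +0.37, and NDUFV1 had a median shift of +0.32. In complex IV, COX6B1, a subunit that faces the intermembrane space, was higher on 3 of the 4 (median shift +0.22). The members named in each complex for the largest median shift were NDUFA9 (-0.71) and NDUFC2 (-0.58), SDHB (-0.61) and SDHD (+0.18), CYC1 (-0.33) and UQCRH (-0.26), and COX4I1 (-0.38) and NDUFA4 (-0.34). All these shifts are of the brightest feature, and other features did not always follow it. The deviations of the dimmer features correlated with those of the brightest at -0.46 and 0.59 for NDUFA10 and at 0.10 for NDUFC2. For UQCRH and NDUFB6 the correlations were 0.46 and 0.76, and for COX7C 0.56 to 0.98.

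**Figure D5:**
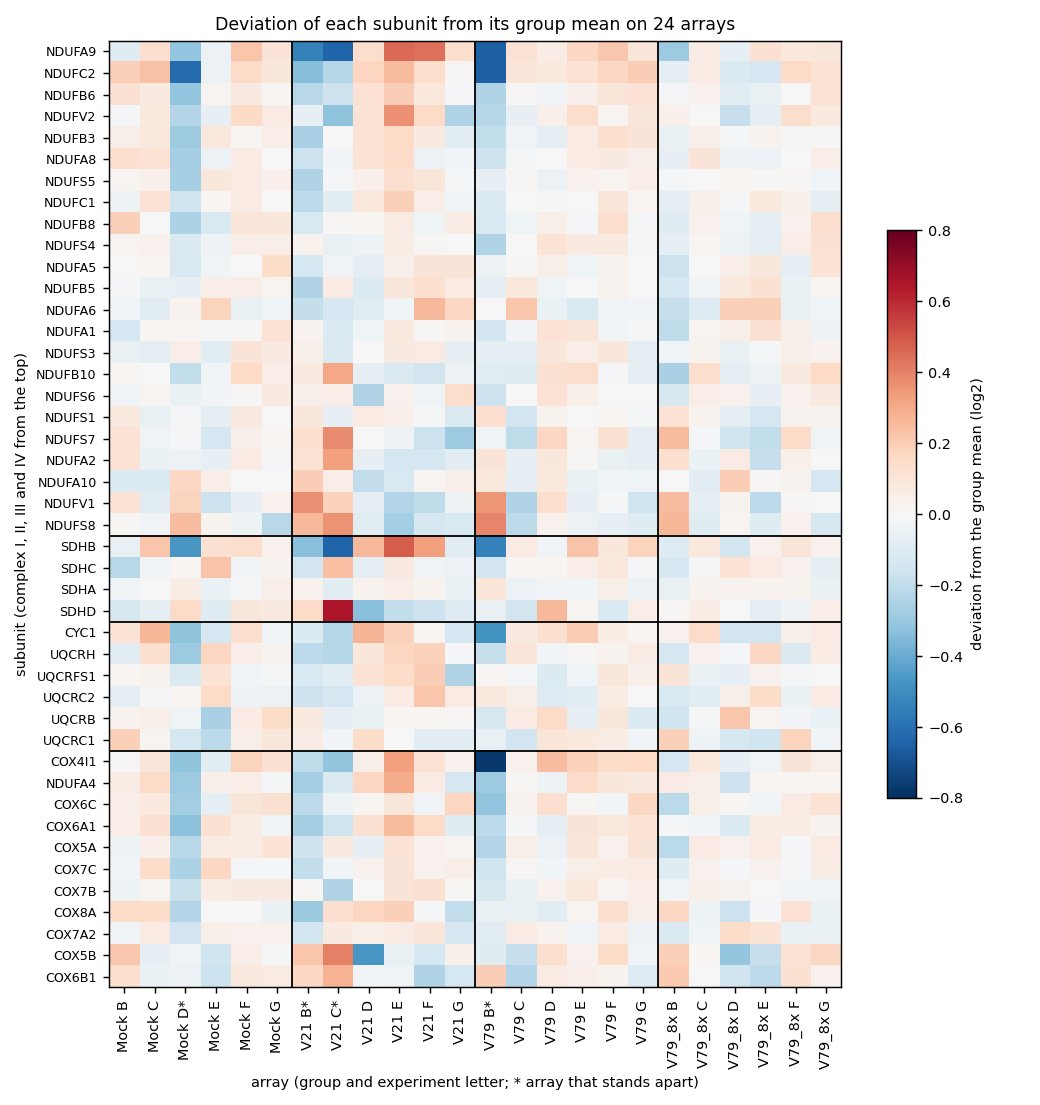
Deviation of each of the 44 members (y axis, by complex) from its group mean on the 24 arrays (x axis), on the log2 scale, in blue where lower and red where higher. The deepest blue cells, of NDUFA9, NDUFC2, SDHB and COX4I1, lie in the columns of Mock D, V21 C and V79 B, where NDUFS8 and NDUFV1 are red.

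The members varied together to a moderate degree, and less so without the 4 arrays. A member's deviations from its group means had a median correlation of 0.47 with the mean of the other 43 over 24 arrays and of 0.34 over the 20 arrays without the 4, with 22 and 14 members above 0.5. NDUFC2 (0.91), NDUFB6 (0.86) and COX4I1 (0.86) were the most alike to the others, and NDUFS8 (-0.74), NDUFV1 (-0.64) and NDUFA10 (-0.62) the least. Among the other genes tested, those whose deviations were most like the members' mean over 24 arrays were POP4 (r = 0.97), TSTD1 (0.96), IFT25 (0.95), CLGN (0.95) and PPT1 (0.94), and over 20 arrays KIZ (0.92), TAB1, ANKEF1, THYN1 (0.89 each) and CLIC1 (0.88). The 2 sets have no gene in common, but the genes of the first kept r from 0.78 (PPT1) to 0.88 (POP4) over 20 arrays. The points of these correlations share arrays and their normalisation.

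The tested genes of the rest of the respiratory chain also stayed short of the threshold. Of 16 further nuclear subunits of complexes I to IV that were tested, 0 passed in any comparison. Of 18 ATP synthase genes and 13 subunits encoded by mitochondrial DNA, 0 passed in any comparison. In V79_8x against Mock the medians were +0.02 for the 16 further subunits, +0.05 for ATP synthase and +0.02 for the mitochondrially encoded subunits, against +0.01 for all genes. The ATP synthase median was further from 0 in V79_8x against V21 (+0.11, 16 of 18 higher, all genes +0.03). In V21 against Mock it was -0.075 (15 of 18 lower, all genes -0.02). Without the 4 arrays these 2 medians were +0.04 and -0.05 (all genes +0.003 and -0.009). The counts of genes higher or lower were not taken over all genes, so they are not read as a trait of ATP synthase. Among the mitochondrially encoded genes, the smallest p in V79_8x against Mock was that of MT-CO2, a core subunit of complex IV (+0.15, limma, adjusted p = 0.85). ATP synthase genes had a larger shift on 3 of the 4 arrays that stand apart than the 44 members, at -0.31 on Mock D, -0.08 on V21 C and -0.33 on V79 B, and one like theirs on V21 B (-0.15). Of 4 tissue or hypoxia isoforms of subunits that passed the dim limit, out of 8, 0 passed a test.

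A gene next to the chain rose in V79_8x cells. Among 7 electron carriers and enzymes that feed ubiquinone by other routes, SQOR, which passes electrons from hydrogen sulphide to ubiquinone, rose 1.36-fold against Mock (+0.45 ± 0.09, limma, adjusted p = 0.0041) and 1.32-fold against V21 (+0.40 ± 0.09, adjusted p = 0.012). Its values were 8.53 to 9.22 in Mock (median 9.09), 8.89 to 9.20 in V21 (median 9.07), 8.94 to 9.31 in V79 (median 9.16) and 9.41 to 9.53 in V79_8x (median 9.45). The V79_8x arrays lay above all others. Against V79 the difference was +0.31 ± 0.09 (adjusted p = 0.14), and without the 4 arrays it was +0.27 ± 0.06 and passed (adjusted p = 0.0068). ETFA, a subunit of the flavoprotein that brings in electrons from fatty acid oxidation, differed by -0.37 ± 0.13 in V79_8x against Mock (adjusted p = 0.20), and by -0.39 ± 0.08 without the 4 arrays, where it passed (adjusted p = 0.0072). It ran from 10.44 to 10.68 for Mock, 9.62 to 10.63 for V21, 9.90 to 10.49 for V79 and 10 to 10.41 for V79_8x. The medians were 10.52, 10.44, 10.25 and 10.17, so V21 and V79 also lay below Mock. ETFA in V79_8x differed by -0.06 against V79 and by -0.11 against V21, so a lower level than in Mock was not particular to V79_8x.

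Assembly factors, regulators and other energy pathways had no member past the threshold on all 24 arrays. Of 47 assembly factors 0 passed, and NDUFAF2, which helps to build complex I, had the smallest p in the 3 comparisons of V79_8x. It ran from 11.48 to 11.78 in Mock (median 11.65), 11.50 to 11.88 in V21 (median 11.69), 11.37 to 11.78 in V79 (median 11.56) and 11.09 to 11.48 in V79_8x (median 11.43). Its differences were -0.30 ± 0.08 against V21 (limma, adjusted p = 0.051), -0.26 ± 0.08 against Mock (adjusted p = 0.14, and -0.29 with adjusted p = 0.031 without the 4 arrays) and -0.19 against V79 (adjusted p = 0.76). The other feature of NDUFAF2 differed by +0.21 against Mock and by +0.14 against V21. Of 18 measured regulators of mitochondrial gene expression 0 passed, with TFB1M, which methylates mitochondrial ribosomal RNA, at -0.17 in V79_8x against Mock (adjusted p = 0.31). The factors whose motifs are shown above had differences of +0.03 (NRF1), -0.02 (YY1) and 0.00 (GABPA) in that comparison. Of 21 genes of hypoxia and glycolysis and 14 of the tricarboxylic acid cycle, 0 passed in any comparison. In the same V79_8x samples, 18 of 18 tested interferon-stimulated genes rose against each of the other 3 groups, with a median difference of +3.37 against Mock.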

How the data were processed

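Per the labels' protocols, 100 ng of total RNA, taken 24 h after transfection, was labelled with Cy3 for 1-colour Agilent arrays. The authors deposited log2 intensities for 62976 features on 24 arrays. The sources used here do not say how background and scale were handled. Features were named through the platform annotation, updated through RefSeq by accession (33705) or former symbol (644), with 2702 kept, giving 37051 features with 1 gene. The brightest feature stood for a gene, and genes with a mean below 6.43 were left out. The 4 groups entered 1 limma fit (limma 3.58.1, R 4.3.3; lmFit and eBayes) with no covariates, two-sided tests and Benjamini-Hochberg adjustment over 15045 genes; "rose" and "fell" mean adjusted p under 0.05. With arrays, their number limits the precision. The submitters call the 6 arrays of a group biological replicates without naming separate cultures, so p-values measure the spread between these samples, which may be partly technical. The fit was tested on simulated data.

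The members, the gene lists and the 4 arrays set aside were chosen with earlier results of these data known. Members given with values for every group were those with the 2 smallest p of a comparison, the brightest and dimmest of each complex, and the 2 of each complex with the largest shift on the 4 arrays, and any other member could be named; those with values or ranges outside the rule (NDUFV1, NDUFS3, NDUFS7, NDUFS8, COX7C, UQCRC2 and a few more) were chosen after their values were seen, as were SERPINA3 and ETFA. From other lists, genes past the threshold or with the smallest p were named, and NRF1, YY1 and GABPA for their motifs. Alternatives were no filter or a stricter one, the mean of all features, array weights, 2-group fits, other normalisations, experiment letter as a block, and leaving out arrays.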

Additional observations from a re-analysis of the deposited data

Results flagged for a closer look

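Values of 17 named subunits and 5 means (4 complexes and all members) were examined in each of the 4 groups of 6 arrays for a single array far from the other 5, by Dixon's ratio of gap to range. Of 88 such groups of values 13 were flagged. The rule flags about 1 in 20 groups by chance, but that rate does not apply here, since some of the 17 subunits were chosen for their shift on the 4 arrays that stand apart. Of the 13, 11 were on Mock D or V79 B, and of these the 6 values of COX4I1, CYC1, NDUFA9, NDUFC2 (on both arrays) and SDHB belong to subunits chosen that way. On Mock D the lowest values were those of COX6A1 (16.34, next 16.65), NDUFC2 (13.38, next 13.95), NDUFS5 (16.65, next 16.94), the mean of complex IV (15.17, next 15.38) and the mean of all members (13.86, next 13.99). On V79 B they were those of COX4I1 (13.56, next 14.37), CYC1 (11.45, next 11.95), NDUFA9 (9.98, next 10.69), NDUFC2 (13.41, next 14.14), SDHB (11.22, next 11.74) and the mean of complex III (13.53, next 13.65). The other 2 were COX5A on V79_8x B (14, next 14.21) and NDUFA4 on V79_8x D (16.35, next 16.53), each the lowest of its group. None of the 13 was flagged on the high side.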

How the results depend on the processing

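The count of 0 members past the threshold held in all 6 comparisons and across the 4 groups under each alternative run: without the 4 arrays, no filter on dim genes or the dimmest 50% left out, the mean of all features, array weights, 2-group fits, median centring, quantile normalisation and each of 24 arrays left out (smallest adjusted p of a member 0.0812). With experiment letter as a replicate block the counts were also 0, and the smallest adjusted p of a member was 0.141, in V79_8x against V21. Deviations of same-letter arrays of different groups had correlations from -0.66 to 0.77 and were all above 0.1 for 1 of 6 pairs of groups (Mock and V79_8x). The main fit did not use the letters to pair the samples. These correlations include the 4 arrays that stand apart, which do not all share a letter. They therefore cannot decide whether the letters mark shared experiments. Median centring and quantile normalisation changed no value, as the arrays were equal in distribution. Leaving out 1 array moved the median difference of the members to between -0.0023 and 0.0378 (V79_8x against V79), -0.0118 and 0.0208 (V79_8x against Mock), 0.0262 and 0.0833 (V79_8x against V21), 0.0072 and 0.0458 (V79 against V21), -0.047 and 0.0123 (V79 against Mock), and -0.0612 and -0.0072 (V21 against Mock). With the mean of all features, whose signs disagree for this gene, the difference of SDHD in V79_8x against V21 turned to 0.0656, the difference of SDHD in V79 against V21 to 0.005, and the difference of SDHD in V21 against Mock to -0.0456. SDHD without V21 C was -0.12 in V79_8x against V21 and -0.13 in V79 against V21. SQOR in V79_8x against V79 also passed with array weights (adjusted p = 0.00275), in the 2-group fit (adjusted p = 0.028) and without Mock D (adjusted p = 0.0099), and against Mock and V21 it passed with each array left out. NDUFAF2 against V21 passed with the block (adjusted p = 0.047), with the dimmest 50% left out (adjusted p = 0.044) and in 5 of 24 fits without 1 array, and against Mock with array weights (adjusted p = 0.0024). ETFA against Mock passed in the 2-group fit (adjusted p = 0.015), with array weights (adjusted p = 0.0013) and without V21 C (adjusted p = 0.025). The cause of these changes was not tested. Taken against only the arrays that do not stand apart, an alternative chosen after seeing the data, the members' median shift on each of the 4 arrays moved by less than the SD between arrays (0.0635), while the histone shift moved to 0.65 on V21 B and 1.04 on V21 C, and the median shift of NDUFA9 to -0.81.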
